A study of Arabidopsis thaliana with 6 samples.

Results

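The 2 arrays of cotyledons taken before induction give the starting state of a culture in which Arabidopsis cotyledon cells are driven towards vascular fates. They are 2 of 6 arrays in the study, titled for 0 h with glucose and 0 h with sucrose, and are used here as 2 arrays of one uninduced state. From each array the median over its 16722 probe sets with exactly 1 gene was subtracted, so a centred signal of 0 is the level of the middle gene and 1 unit is a 2-fold difference. Genes were ordered by the mean centred signal of both arrays, with the highest probe set kept for each of 16548 genes, and those at least 2-fold apart between the arrays were drawn out.

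The cotyledons came from wild-type seedlings grown for 6 days in liquid MS medium, a mineral nutrient solution, at 22 °C in continuous light. The other 4 arrays, 1 for each sugar at 24 h and at 48 h, measured cotyledons in induction medium. That medium held 5% of either sugar, the auxin 2,4-D at 1.25 mg/L, 0.25 mg/L of the cytokinin kinetin and 10 µM bikinin. Bikinin inhibits GSK3-like kinases and so switches on brassinosteroid signalling. The sample labels list the same sugar percentage, 2,4-D, kinetin and bikinin for the 2 uninduced arrays, which their titles place at 0 h. Titles and descriptions place the sucrose array at 0 h, whereas its time label reads 72 h, and the time labels of the 4 cultured arrays differ from their titles too. The labels do not say whether the arrays came from separate cultures, so the spread between them may be technical.

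A seed leaf that has greened in the light is mostly mesophyll, whose cells are packed with chloroplasts. The chloroplast genome encodes core subunits of both photosystems, the cytochrome b6f complex, the ATP synthase, the NDH complex and the large subunit of Rubisco, and is transcribed largely as long shared transcripts. Antenna proteins, the remaining photosystem subunits and most enzymes of carbon fixation are encoded in the nucleus, whose transcripts respond to light, sugar, cold and wounding.

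The 2 uninduced arrays resembled each other more than any cultured array. Their signals correlated at 0.975 across the 1-gene probe sets, against 0.820 to 0.876 between an uninduced and a cultured array. These are correlations across genes, which are not independent replicates. The highest deposited signal was 14.2 on each array and the deposited 1-gene medians were 5.35 and 5.33. Signals more than 8 units above the median thus lie near the top of the scale. They may be compressed there, which was not tested. The 10 background control sets richest in G and C had medians of 9.14 on the glucose-labelled array and 8.43 on the sucrose-labelled array, and 7.36 to 8.18 on the cultured arrays. The 36 hybridisation control sets had medians of 8.71 and 8.57, and 7.44 to 7.84 in culture. The part of these controls in the differences below was not tested. Probe sets differ in affinity, so the order given here is one of signals and not of transcript amounts.

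Measured marker genes of green leaf cells had mean signals above the array median, and the few measured ones of flower, root and meristem had means below it. Of the 4 nuclear antenna genes, 4 photosystem genes and 4 Calvin cycle genes measured, 12 of 12 had mean signals above the array median. Measured were 5 of 13 listed flower and pollen markers, 2 of 19 root markers and 1 of 7 shoot meristem markers, CLV3. Their means were below the array median, from -2.62 for CLV3 to -0.02 for the root marker PYK10. On single arrays PYK10 was at -0.17 and 0.12 and the pollen marker VGDH1 at 0.01 and -0.57, so each was above the median on 1 array. No marker of epidermis or cuticle was measured by a 1-gene probe set.

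Chloroplast-encoded genes filled the top of the order. Of the 100 highest genes, 59 were encoded in the chloroplast, and they were 59 of the 63 chloroplast genes measured. A further 10 carried the symbol of a mitochondrial gene, 4 were AT2G07 loci, 26 were other nuclear genes and 1, rpl2, could not be assigned to a genome. Among the highest 50 genes the chloroplast held 44. RefSeq lists 85 protein-coding chloroplast genes, and those without a 1-gene probe set were not analysed here. The set closed narrowly, with AT2G12905 at 6.54 in rank 99, AT2G07732 at 6.53 in rank 100 and FIB at 6.52 in rank 101.

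**Figure D1:**
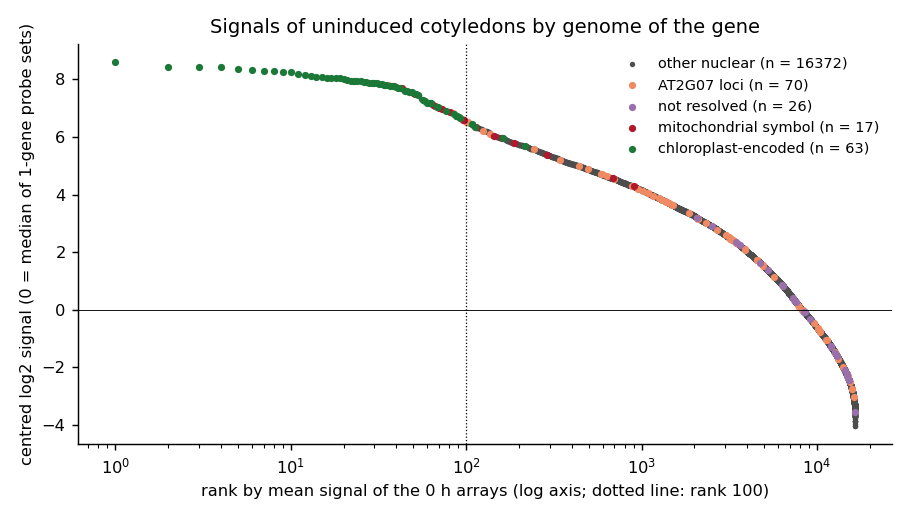
Mean centred log2 signal of the 0 h arrays against the rank of each of 16548 genes on a log axis, coloured by genome. Chloroplast-encoded genes take nearly all of the first ranks, from 8.60 downwards, and other nuclear genes become frequent only near rank 100 (dotted line).

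The highest signal of all belonged to atpH (ArthCp009), the membrane ring subunit of the chloroplast ATP synthase, at 8.60 on the glucose-labelled and 8.59 on the sucrose-labelled array. Next came psaB, a reaction centre protein of photosystem I, at 8.47 and 8.42, and psbA, the D1 protein of photosystem II, at 8.45 and 8.43. The difference between the arrays was at most 0.05 for each of these 3 genes, and the order among neighbours is no firmer than that. Following them, psbB, which encodes the CP47 antenna of the photosystem II core, stood at 8.42 ± 0.04 (SD, n = 2), and psbE and psbF, the cytochrome b559 subunits, at 8.36 and 8.31. The small cytochrome b6f subunit petG, the second photosystem I reaction centre gene psaA, the cytochrome b6 gene petB and the Rubisco large subunit gene rbcL lay between 8.29 and 8.24 and were within 0.07 of each other on the 2 arrays. The ribosomal protein gene rpl14 at 8.19 and atpA, the catalytic-head alpha subunit of the ATP synthase, at 8.15 completed the first 12.

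Photosynthetic complexes stood above the gene expression machinery within the chloroplast genome. Median signals were 8.11 for the 5 photosystem I genes, 8.06 for 4 ATP synthase genes, 8.02 for 13 photosystem II genes and 7.99 for 6 cytochrome b6f genes. The 10 NDH genes, whose complex returns electrons to plastoquinone, had a median of 7.87. The 13 ribosomal protein genes had 7.18 and the 4 RNA polymerase genes 6.82. Members of a complex were not uniform. Among genes with a psb symbol, grouped here as photosystem II, the signals ran from 8.44 for psbA to 6.66 for psbT and 6.45 for psbN. Within the ribosomal proteins they ran from 8.19 for rpl14 to 5.68 for rps16, the lowest chloroplast gene measured. These groupings by complex follow gene symbols, which do not prove that a product is a subunit. They were made after the values were seen and are a description.

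Signals of chloroplast genes differed little between the uninduced arrays. Their median absolute difference was 0.05, against 0.29 over all genes, and none was 2-fold apart. The widest gap was that of psbT, a small photosystem II subunit, at 6.96 on the glucose-labelled and 6.36 on the sucrose-labelled array, a difference of -0.60. Among all 1-gene probe sets the SD of the difference between the arrays narrowed with level, from 0.55 for means of 0 to 2 to 0.19 for means above 6, a range that held 61 of the 63 chloroplast genes.

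**Figure D2:**
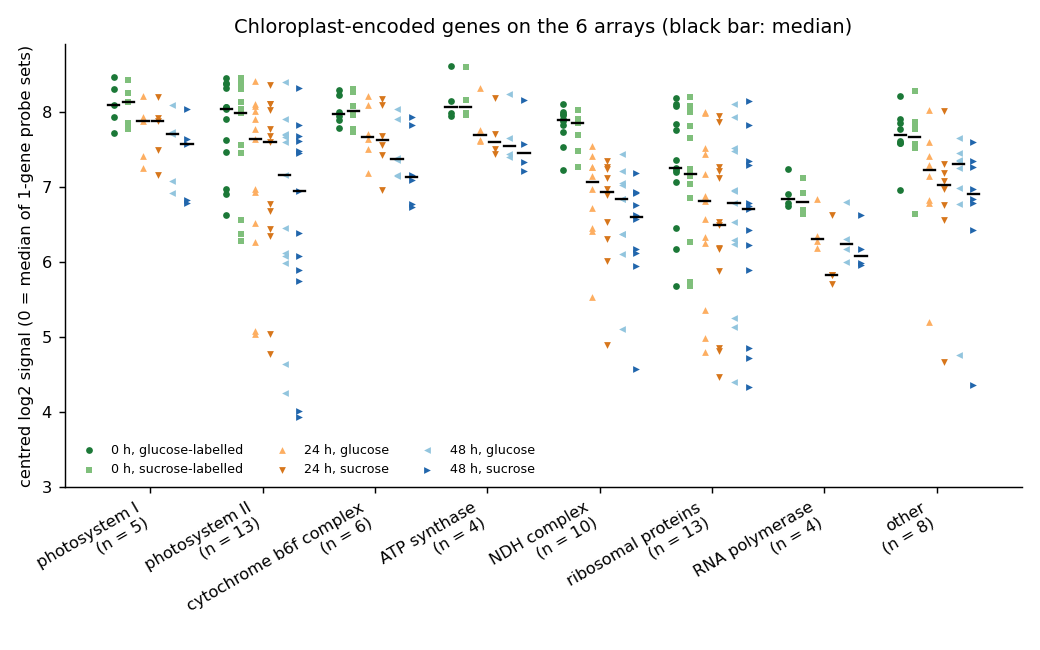
Centred log2 signals of chloroplast-encoded genes by complex on the 6 arrays, each point a gene and each black bar the median. The uninduced medians of the photosynthetic complexes lie between 7.87 and 8.11, and the medians of the cultured arrays lie lower in each complex, with a median change of -0.99 in the NDH complex.

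Most chloroplast genes had lower signals in culture. In the limma model over all 6 arrays, 58 of the 63 passed the threshold (adjusted p under 0.05, Benjamini-Hochberg) as higher at 0 h, and 0 as lower, with 0 lower at an unadjusted p under 0.05 too. Of all 1-gene probe sets tested, 22.5% were higher at 0 h and 27.0% lower, and of all probe sets tested 20.0% and 31.2%. The median difference, 0 h minus culture, was 0.66 for chloroplast genes and -0.08 over the 1-gene probe sets tested. The count was 30 without the trend of spread with signal, 36 without the glucose-labelled and 40 without the sucrose-labelled 0 h array. The median difference over 1-gene probe sets moved with the scaling, to -0.20 on signals as deposited and 0.11 after quantile normalization, and the chloroplast counts there were 49 and 57. In bulk RNA, fewer cells of a type and less RNA per cell cannot be told apart.

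The 5 that did not pass were psbA, petG, rpl20, clpP and psbN. The D1 gene psbA was at 8.45 and 8.43 at 0 h and at 8.40, 8.35, 8.39 and 8.31 on the glucose 24 h, sucrose 24 h, glucose 48 h and sucrose 48 h arrays. At the other end, ndhF, an NDH subunit gene, fell from a mean of 7.50 to 5.03 (difference 2.48, SE 0.12, adjusted p = 0.00024). Small photosystem II genes were also among the widest: psbM differed by 2.13 (SE 0.16, adjusted p = 0.00047) and psbT by 2.07 (SE 0.22, adjusted p = 0.001). For 61 of the 63, all 4 cultured arrays lay below both uninduced arrays, which was so for 38.2% of all ranked genes.

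Genes with mitochondrial symbols were high at 0 h and close to the same level in culture. The highest was cox1, a cytochrome c oxidase subunit, at 7.75 and 7.76 at 0 h and 7.79 to 8.10 on the cultured arrays. Then came the complex I subunits nad4L at 7.69, nad1 at 7.50, nad4 at 7.14 and nad2 at 7.09, each with the 2 arrays within 0.09. Of 17 such genes, limma called 2 lower at 0 h, the cytochrome c maturation gene ccb382 (difference -0.99, SE 0.18, adjusted p = 0.0057) and orfX (-0.42, SE 0.12, adjusted p = 0.029), and 0 higher, with 1 higher at an unadjusted p under 0.05. Of all 1-gene probe sets tested, 27.0% were called lower at 0 h and 22.5% higher. The call of orfX was lost without either 0 h array. The number lower was 6 on signals as deposited, so the direction of small shifts here depends on the centring. The AT2G07 loci lie in or near the part of chromosome 2 that holds a nuclear copy of the mitochondrial genome, and probe sets for either copy may read both. These 70 loci had a median signal of 2.50 at 0 h, and 24 had cultured means at least 2-fold above it, against 14.4% of all ranked genes.

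Nuclear genes outside the AT2G07 loci began at rank 48. The first were AT3G20362, at 7.60 and 7.52, and AT5G42530, at 7.36 and 7.66, loci that the gene table used here does not name. AT3G20362 stayed between 5.96 and 7.25 in culture. AT5G42530 was at 4.16 and 6.89 at 24 h and at 0.77 and 2.06 at 48 h, glucose before sucrose, so its cultured arrays all lay below both uninduced ones and spread over more than 6 units.

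Of the 16548 genes ordered, 1805 have a symbol in the tables used. The highest nuclear one was PSBW, a photosystem II subunit, at 7.01 and 6.89. ABR1, an AP2-type transcription factor acting on abscisic acid responses, was at 6.90 and 6.96, and COR15A, a cold-induced protein of the chloroplast stroma, at 6.86 and 6.95. In culture all 3 were lower on every array: PSBW at 2.37 to 4.22, ABR1 at -0.42 to 1.82 and COR15A at -0.53 to 3.93.

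ECS1 stood at 6.69 and 7.07, and TROL, the thylakoid protein that tethers ferredoxin-NADP reductase, at 6.90 and 6.77. KIN2, a cold- and abscisic acid-induced gene, was at 6.77 and 6.66 and FIB, a fibrillin of plastoglobules, at 6.41 and 6.63. The zinc finger repressor gene STZ was at 6.40 and 6.50. Further down were the chloroplast protein genes LHB1B2, PSAE-1 and RCA and the jasmonate pathway gene OPCL1, all between 6.28 and 6.45. Also among the 30 highest with a symbol were FAMT, a carboxyl methyltransferase gene, at 6.21, the thylakoid ascorbate peroxidase gene TAPX at 5.99, the photorespiratory hydroxypyruvate reductase gene HPR at 5.98 and the immune kinase gene BIK1 at 5.86.

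These 30 genes were chosen for a high signal at 0 h, so their culture values are a description. Those that are also members of a gene list enter the list tests below, where this choice favours a call as higher at 0 h. For these, among them PSBW, LHB1B2, PSAE-1, RCA, HPR, TAPX and AlaAT1, the p-values are no independent test of a fall. For 27 of the 30 all 4 cultured arrays lay below both uninduced ones, against 38.2% of all ranked genes, and the median change was -3.27. Changes were smallest for triose phosphate isomerase (TPI, 6.26 at 0 h), AlaAT1 (6.02), COB (5.74), which guides oriented cell expansion, and the ubiquitin protease gene UBP23 (5.68). COB was the one gene of the 30 with all 4 cultured arrays, at 6.38 to 6.65, above both uninduced ones at 5.68 and 5.80. Of the 26 nuclear genes in the highest 100, 4 to 6 were in the highest 100 of a cultured array, and of the 59 chloroplast genes 43 to 53. Both sets were chosen by 0 h rank, and the nuclear genes lay closer to the cut. The highest of them was at 7.56 and the median of all chloroplast genes at 7.85, against 6.53 for the 100th gene. The 2 counts are therefore not comparable.

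Measured genes of the nuclear photosynthesis lists were above the array median at 0 h and nearly all fell in culture. Most listed genes had no 1-gene probe set: 4 of 20 antenna, 4 of 24 photosystem, 5 of 21 electron transport, 4 of 23 Calvin cycle and 7 of 24 chlorophyll genes were measured. Limma called 3 of 4 antenna genes, 4 of 4 photosystem genes, 5 of 5 genes of photosynthetic electron transport, 4 of 4 Calvin cycle genes and 7 of 7 chlorophyll synthesis genes as higher at 0 h, each against 22.5% of all 1-gene probe sets. Among them the call of PGRL1B, of cyclic electron transport, was lost without the sucrose-labelled 0 h, the glucose 24 h or the sucrose 48 h array. List medians of the difference were 3.72, 4.11, 4.05, 3.71 and 3.06, larger than the 0.66 of the chloroplast-encoded genes. Signals of the latter sit nearer the top of the scale, and the part of this in the gap was not tested.

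Among antenna genes, LHB1B2, which encodes a major light-harvesting protein, was at 6.60 and 6.31 at 0 h and between 1.40 and 3.07 in culture (difference 4.15, SE 0.20, adjusted p = 0.00024). LHCB4.1 and LHCB4.2, encoding the minor antenna CP29, were at 4.48 and 4.21. Their relative LHCB4.3 had a mean of 0.08 at 0 h and -0.92 in culture and did not pass (SE of the difference 0.34, adjusted p = 0.051). Of the photosystem I genes, PSAE-1 was at 6.30 on one array and 6.31 on the other, and PSAN at 5.51 and 5.26, with cultured signals of -0.66 to 0.86 for PSAN (difference 5.20, SE 0.25, adjusted p = 0.00024).

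The nuclear NDH subunit gene NdhL was at 5.39 on both arrays and between -0.94 and 0.57 in culture, a fall of 5.74 (SE 0.27, adjusted p = 0.00024). NdhU and NdhN were lower, at 3.43 and 3.42, while the ATP synthase gamma subunit gene ATPC1 was at 4.13. The uninduced signals of each pair of arrays differed by at most 0.30 for these 4 genes, far less than the step to culture. In culture NdhU was at -0.83 to -0.27 and NdhN at -1.13 to -0.57. Both may have cleared the filter on low signals only with the 0 h arrays, which favours a call as higher at 0 h.

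In the Calvin cycle list RCA, the Rubisco activase gene, was at 6.17 and 6.39, SBPASE at 5.69 and 5.65 and phosphoribulokinase (PRK) at 4.57 and 4.68. PRK was at or below -0.22 on all 4 cultured arrays (difference 5.36, SE 0.27, adjusted p = 0.00024). Of the chlorophyll genes, PORB, a light-dependent protochlorophyllide reductase, was at 5.36 and 4.65 and fell by 5.25 (SE 0.30, adjusted p = 0.00028). GSA1, which acts early in the pathway, was at 3.74 and differed least, by 1.11 (SE 0.21, adjusted p = 0.0067). Photorespiration genes were called higher at 0 h in 4 of 5 cases, against 22.5% of 1-gene probe sets, led by HPR (difference 4.00, SE 0.21, adjusted p = 0.00024). The fifth, AT2G35120, was at 0.45 and 0.20 at 0 h and at 3.02 to 4.14 in culture (difference -3.28, SE 0.22, adjusted p = 0.00034).

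**Figure D3:**
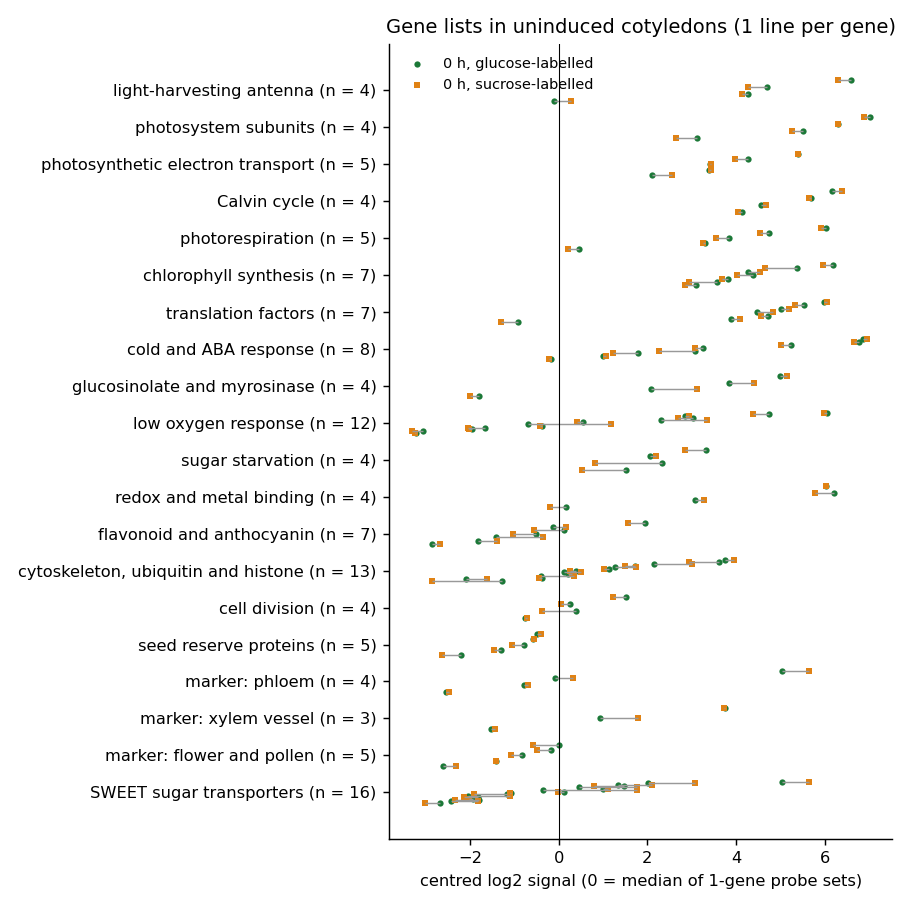
Centred log2 signals at 0 h of the measured members of 20 gene lists, 1 line per gene joining the glucose-labelled (circle) and sucrose-labelled (square) array, with the array median at 0. Nearly all genes of the photosynthesis lists lie to the right of the median, the seed reserve genes to its left, and most other lists on both sides.

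Several stress-response genes had high signals in the uninduced cotyledons. Limma called 7 of 8 measured genes of the cold and abscisic acid list and both measured genes, of 25 listed, of the wound and touch list as higher at 0 h, against 22.5% of 1-gene probe sets, with median differences of 4.25 and 5.42. COR15A (difference 5.52, SE 0.29, adjusted p = 0.00025), KIN2 (4.58, SE 0.22, adjusted p = 0.00024) and the dehydrin gene COR47 (4.49, SE 0.28, adjusted p = 0.00029) had the highest signals of the first list. COR15B, a close relative of COR15A, was at 3.07 and 2.26 at 0 h and between -2.46 and -2.15 in culture. KIN1 at 1.79 and 1.22 and LTI30 at 1.01 and 1.05 had lower signals and also passed. In culture KIN1 was at -2.73 to -2.14 and LTI30 at -2.46 to -1.61. COR15B, KIN1 and LTI30 cleared the filter on low signals through the 0 h arrays alone, which favours that call.

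ABR1 differed by 6.35 (SE 0.37, adjusted p = 0.00028), and STZ by 4.49 (SE 0.19, adjusted p = 0.00024). FAMT, a carboxyl methyltransferase gene, differed by 5.96 (SE 0.27, adjusted p = 0.00024). It was the 1 of 3 measured genes of the jasmonate list called higher at 0 h, against 22.5% of 1-gene probe sets. JMT (adjusted p = 0.46) and BSMT1 (adjusted p = 0.73) did not pass. COR15A, KIN2, ABR1, STZ and FAMT are among the 30 genes chosen for a high 0 h signal. Their limma differences are therefore a description, and their p-values are no independent test of a fall. Of the low oxygen list, 5 of 8 tested genes were called higher at 0 h, against 22.5% of 1-gene probe sets, including the calmodulin-like gene CML38 at 4.74 and 4.38 (difference 4.28, SE 0.27, adjusted p = 0.00029) and the pyruvate decarboxylase gene PDC2 at 2.86 and 2.93 (1.39, SE 0.29, adjusted p = 0.0098). A further 4 genes of that list were left out of the test by the filter on low signals. AT4G24110, among those called, cleared that filter through the 0 h arrays alone. Of 27 listed glucosinolate genes 4 were measured, and 1 of these was left out as low. All 3 tested were called higher at 0 h, against 22.5% of 1-gene probe sets. They were the transporter genes GTR1 at 4.99 and 5.15 and GTR2 at 3.85 and 4.40, and UGT74B1 at 2.07 and 3.12.

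All 4 measured cell division genes were called lower at 0 h, against 27.0% of 1-gene probe sets. The Aurora kinase gene AUR1 was at 0.26 and 0.04 at 0 h and between 2.92 and 5.39 in culture (difference -4.14, SE 0.37, adjusted p = 0.00069). AUR2, below the median at -0.75 and -0.72, differed by -4.31 (SE 0.36, adjusted p = 0.00058). It cleared the filter on low signals through the cultured arrays alone, which favours that call. PRL, a DNA replication licensing gene, was highest of the list at 1.52 and 1.22.

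Of 12 tested genes for tubulin, actin and histones, 9 were called lower and 1 higher at 0 h, against 27.0% and 22.5% of 1-gene probe sets. TUB1, among those lower, was at -1.28 and -2.86 at 0 h. It cleared the filter on low signals through cultured arrays alone, which favours that call. The calls of TUB9 and HTB4 were lost without the glucose-labelled 0 h array and without 3 and 4 others in turn, that of HTB1 without the glucose-labelled 0 h, glucose 24 h or sucrose 48 h array, and that of TUB6 without the sucrose-labelled 0 h array. HTR12, the centromeric histone H3 gene, was at 0.39 and 0.24 and differed by -3.10 (SE 0.25, adjusted p = 0.00052). The exception was TUB5, at 1.71 and 1.50 at 0 h and below 0 on all cultured arrays (difference 2.57, SE 0.31, adjusted p = 0.0016). Of 7 translation factor genes, 3 were called lower and 1 higher at 0 h, against those same shares, the last lost without either 0 h array, the sucrose 24 h or the glucose 48 h array. EIF4A-2 was at 4.48 and 4.83 at 0 h and at 4.24 to 5.40 in culture, groups that overlap, and did not pass (adjusted p = 0.34).

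Smaller lists gave mixed results. Both clock genes tested were called higher at 0 h, against 22.5% of 1-gene probe sets, but the call of AT5G52660 was lost without any 1 of the 6 arrays. The other, GI, was at 3.85 and 3.73 at 0 h and at 2.51 to 3.21 in culture (difference 1.02, SE 0.21, adjusted p = 0.0091), a call that was lost without the glucose-labelled 0 h array. Of 4 redox genes, 2 were called higher at 0 h and 1 lower, against 22.5% and 27.0% of 1-gene probe sets. Those higher were TAPX (3.46, SE 0.22, adjusted p = 0.00029) and AT3G11630. SAPX, the stromal relative of TAPX, was lower (-0.98, SE 0.20, adjusted p = 0.0086), a call lost without the glucose-labelled 0 h array. Of 2 heat shock genes tested 1 was called in each direction, against those same shares. The Clp chaperone gene HSP93-III was lower at 0 h (-0.89, SE 0.21, adjusted p = 0.016), a call lost without either 0 h array or without the glucose 24 h array. Of 4 sugar starvation genes 1 was called higher at 0 h, D2HGDH (1.44, SE 0.30, adjusted p = 0.0095), close to the share of 22.5%. Of 4 defensin genes measured, 3 were left out as low. The 1 tested, PDF1.2b, was called higher at 0 h (1.85, SE 0.36, adjusted p = 0.0074), against 22.5% of 1-gene probe sets. PDF1.2b cleared the filter on low signals through the 0 h arrays alone.

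Of 7 measured genes of the flavonoid list, 2 had a mean above the array median at 0 h, the highest AT1G03940 at 1.94 and 1.56. DFR, the dihydroflavonol reductase gene of anthocyanin synthesis, was at 0.11 and -0.57, and 4 of 6 tested genes of the list were called lower at 0 h, against 27.0% of 1-gene probe sets (DFR difference -4.59, SE 0.48, adjusted p = 0.001). The call of AT5MAT among them was lost without the glucose-labelled 0 h, glucose 24 h or sucrose 48 h array. UF3GT, also among the flavonoid genes called lower, was at -1.82 and -1.39 at 0 h. It cleared the filter on low signals through cultured arrays alone, which favours that call. Genes of seed reserves, which fill a cotyledon before germination, were not above the median: the 5 measured members had means from -2.43 to -0.45, and 4 of them fell below the filter. Of the genes that break down seed oil, AIM1, for beta-oxidation, was at 3.40 and 3.58, the lipase gene SDP1 at 2.16 and 2.14 and isocitrate lyase (ICL) at 0.15 and -0.35. None of these 3 passed in limma in either direction, although SDP1 had an unadjusted p of 0.041.

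Vascular markers differed by gene before induction. SWEET11, a sucrose exporter of phloem parenchyma, was high at 5.03 and 5.65, and fell to -1.25 and -0.62 at 48 h (difference over both times 4.63, SE 0.30, adjusted p = 0.00031). The early phloem genes OPS at -0.78 and -0.70 and CLE45 at -2.54 and -2.47 were low and were called lower at 0 h than in culture (differences -2.38 and -2.51, adjusted p = 0.0044 and 0.0019). Both cleared the filter on low signals through cultured arrays alone, which favours that call. The fourth phloem gene measured, the peptide gene CLE26, was at -0.09 and 0.31 and did not pass (0.56, SE 0.39, adjusted p = 0.27). Of the 4 phloem genes tested, 1 was thus called higher and 2 lower at 0 h, against 22.5% and 27.0% of 1-gene probe sets. Of xylan genes used in secondary walls, IRX15-L was at 3.76 and 3.72, GUT2 at 0.93 and 1.79 and IRX15 at -1.52 and -1.45. Only GUT2 of these 3 passed, as lower at 0 h (difference -2.03, SE 0.40, adjusted p = 0.0083), against 27.0% of 1-gene probe sets. In the stomatal lineage, FMA, for guard cell identity, was at 2.26 and 2.44, SPCH at -0.03 and 0.57 and MUTE at -2.47 and -2.43. Of the 2 tested SPCH was called higher at 0 h, against 22.5% of 1-gene probe sets, a call lost without the sucrose 24 h array. SPCH cleared the filter on low signals through the 0 h arrays alone.

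Between the uninduced arrays, 812 of 16722 probe sets (4.86%) were at least 2-fold apart. Of these, 480 (2.87%) were higher on the sucrose-labelled and 332 (1.99%) on the glucose-labelled array, but the balance follows the centring: after centring on the median of all probe sets it was 286 against 618, after trimmed-mean scaling 377 against 423, and after quantile normalization 366 against 719. It kept its direction on signals as deposited, at 448 against 352, and after loess, at 472 against 306. With 1 array on each side there is no test, and the differences are a description. No probe set with a mean signal above 6 was 2-fold apart, and of the 812 only 496 were above the array median on either array. At the edge of the call AT1G29465 and AT4G22285, each at 1.0002, lay just inside and AT5G60945, at 0.9995, just outside.

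**Figure D4:**
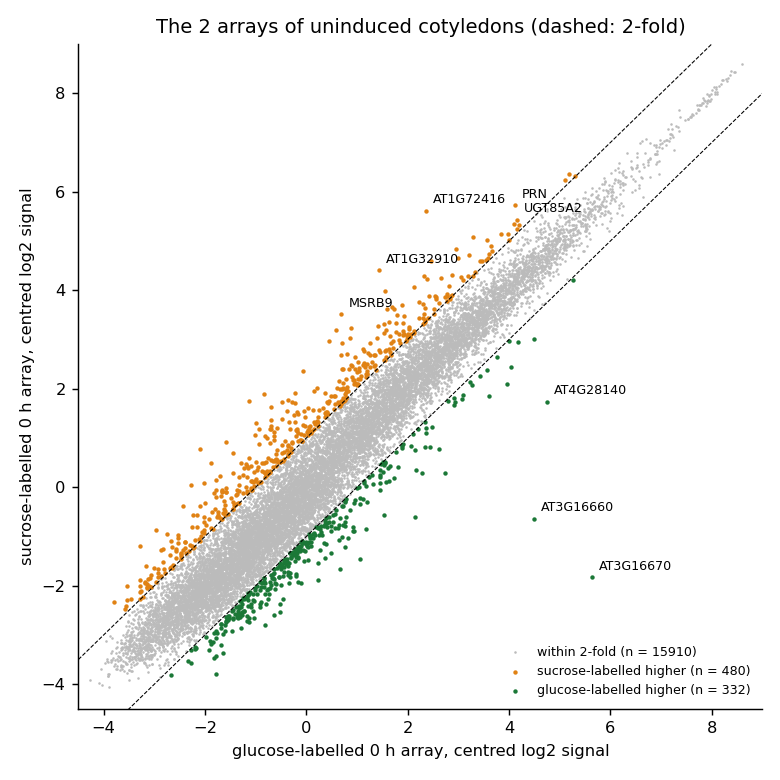
Centred log2 signal of each 1-gene probe set on the sucrose-labelled against the glucose-labelled 0 h array, with dashed lines at 2-fold. Points narrow towards high signals, and AT3G16670 and AT3G16660 lie far below the rest.

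A pair of neighbouring loci stood apart from all others. AT3G16670 was at 5.64 on the glucose-labelled array and -1.82 on the sucrose-labelled one, a difference of -7.46, and at -2.25 to -1.88 on the 4 cultured arrays. AT3G16660, the next protein-coding locus in the RefSeq order, was at 4.48 and -0.64, a difference of -5.12. So the glucose-labelled 0 h array alone carried the high signal of AT3G16670. For AT3G16660 the sucrose 24 h array, at 2.78, was also above the others, which ran from -0.96 to 0.59. The locus on the other side, AT3G16680, was low on both arrays at -2.03 and -2.28, and SWEET16 beyond it was at 1.34 and 2.11, so the gap did not extend to them. The next loci beyond AT3G16660, AT3G16650 and TCTP, had no 1-gene probe set, so the gap could not be followed on that side. The gene table used here gives AT3G16670, AT3G16660 and AT3G16680 no name.

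The next largest differences in the same direction were AT4G28140 (4.75 and 1.74, -3.01), AT1G80865 (-2.76), AT3G05730 (-2.53) and AT5G48490 (-2.44). Genes with a symbol that were 2-fold higher on the glucose-labelled array, and above the array median on at least 1 array, numbered 15. They included LEA, a late embryogenesis abundant protein gene, at 0.76 and -1.22 and its relative LEA18 at 0.48 and -0.89, the ubiquitin ligase gene PUB19 at 0.91 and -0.82 and WLIM2a, an actin-binding protein gene, at 3.76 and 2.65. AT3G15450 of the sugar starvation list, at 2.34 and 0.81, and ATHSP22.0, a small heat shock protein gene, at -1.32 and -2.64, were also higher there, as was the tubulin gene TUB1 at -1.28 and -2.86. Except for WLIM2a and AT3G15450, the genes named in these last 2 sentences were below the median of the array on which they were lower.

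Genes with a symbol that were 2-fold higher on the sucrose-labelled array, and above the array median on at least 1 array, numbered 43. MSRB9, a methionine sulfoxide reductase gene, was at 0.69 and 3.51 (2.83), IDD16, a zinc finger gene, at 1.54 and 3.97 (2.43) and the pirin gene PRN at 4.11 and 5.73 (1.62). Among them too were WRKY29, a transcription factor gene of immune signalling, at 0.70 and 2.40, the chitinase gene ChiC at 1.35 and 2.69 and the glucosyltransferase genes UGT85A2 (4.15 and 5.43), UGT71C5 (1.54 and 2.59) and UGT74B1. The defensin gene PDF1.2, at -1.60 and -0.48, was below the median on both arrays. The jasmonate list's BSMT1, a methyltransferase gene, was at -1.59 and -0.10, the flavonoid glucosyltransferase gene UGT78D2 at -1.41 and -0.35, and AT4G17260 and AT4G33560 of the low oxygen list at 2.31 and 3.34 and at -0.70 and 1.17. The largest differences fell on loci without a symbol, AT1G72416 at 2.36 and 5.62 (3.26) and AT1G32910 at 1.43 and 4.41 (2.98).

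Of 16 SWEET sugar transporter genes measured, 3 were 2-fold apart, all higher on the sucrose-labelled array, as were 2.87% of all 1-gene probe sets. These were SWEET17, a fructose transporter of the vacuole, at -0.36 and 1.76, SWEET13, a sucrose transporter, at 0.45 and 1.76, and SWEET2 of the vacuolar membrane at 2.01 and 3.06. The difference of SWEET2, at 1.06, was close to the edge of the call and fell below it under 4 other scalings. SWEET13 was also higher with sucrose in culture, at 2.73 against 0.85 at 24 h and 3.10 against 0.49 at 48 h, whereas SWEET17 differed by 0.40 and 0.68. This list was drawn up after values were seen.

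The sugar differences at 24 h and 48 h share no array with the uninduced pair and are given beside it. Of the 480 probe sets higher on the sucrose-labelled 0 h array, 86 (17.9%) were at least 2-fold higher with sucrose at 24 h and 58 (12.1%) at 48 h, against 3.35% and 3.19% of all 1-gene probe sets. In the other direction, with glucose higher, 12 (2.5%) were 2-fold apart at 24 h and 27 (5.63%) at 48 h, against 2.70% and 5.63% of all. Of the 332 higher on the glucose-labelled array, 21 (6.33%) were 2-fold higher with glucose at 24 h and 27 (8.13%) at 48 h. The shares of all 1-gene probe sets were 2.70% and 5.63%. With sucrose higher there were 4 (1.20%) and 9 (2.71%), against 3.35% and 3.19% of all.

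**Figure D5:**
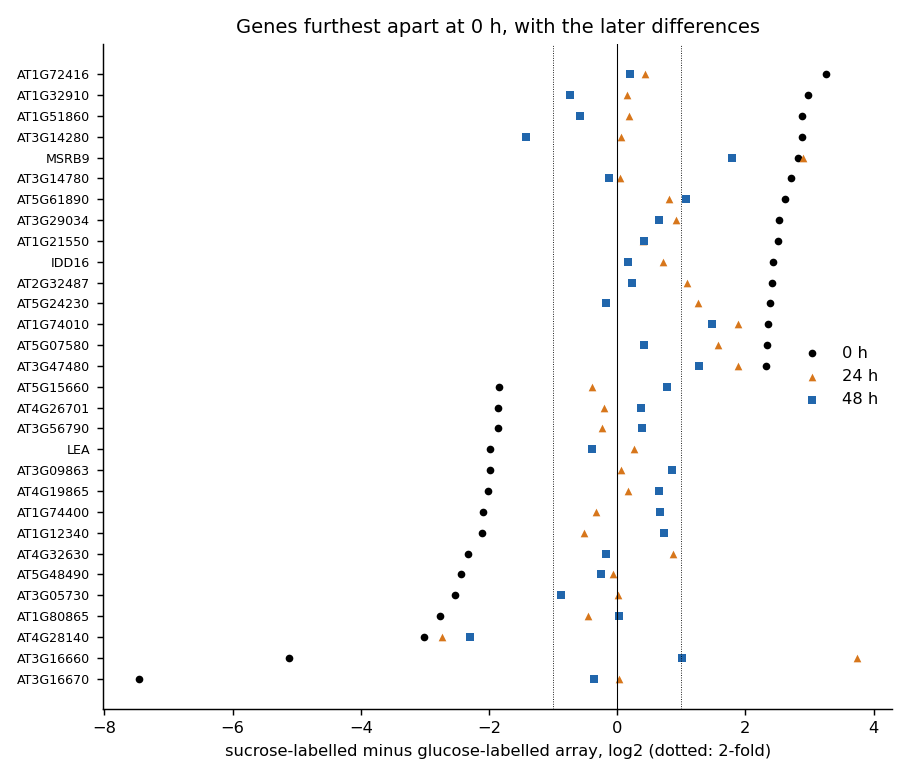
Sucrose minus glucose difference in log2 signal at 0 h, 24 h and 48 h for the 15 genes furthest apart at 0 h in each direction, with dotted lines at 2-fold. MSRB9, AT1G74010, AT3G47480 and AT4G28140 keep differences of 2-fold or more in the same direction at all 3 times, while most others lie within 2-fold in culture.

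Single genes showed how unevenly the uninduced differences returned. MSRB9 was higher with sucrose by 2.90 at 24 h and 1.80 at 48 h, and AT4G28140, higher with glucose, differed by -2.73 and -2.29. FLR1, a leucine-rich repeat protein gene, was at 3.21 and 4.72 at 0 h, and at 2.62 and 4.06 at 24 h and 1.72 and 3.50 at 48 h. PRN was higher with sucrose by 2.14 at 24 h and 1.48 at 48 h. In contrast, AT1G72416 and AT1G32910 differed by 0.43 and 0.15 at 24 h, and by 0.20 and -0.74 at 48 h.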

How the data were processed

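RNA from cotyledons was amplified and biotin-labelled before hybridisation to 1 array per sample, per the labels' protocols; amplification can shift the relative level of transcripts. The values are the authors' deposited log2 signals for 38408 probe sets, made with GCOS per the submitters' processing notes, for which no source used here gives the background correction, the normalization or the log base. Base 2 was inferred, since the maximum of 14.2 would exceed a scanner's range in a larger base. The platform's probe table gave 16722 probe sets exactly 1 gene, 759 several and 20829 none; 16574 of the first matched RefSeq (assembly TAIR10.1), 17 were matched by mitochondrial symbol, and no coordinates were used.

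Each column was centred on its 1-gene median, and the sugar label was ignored at 0 h. Differences between the 0 h arrays were called at 2-fold, with no test. For gene lists, limma 3.58.1 in R 4.3.3 (lmFit and eBayes with trend, two-sided) compared 0 h with the mean of 24 h and 48 h, with 1 mean per time and 1 sucrose term for culture, on 25811 probe sets above the pooled 40th percentile on at least 2 arrays. Its 2 residual degrees of freedom come from the 0 h pair and from how far the sugar effect differs between 24 h and 48 h. P-values were adjusted over all probe sets tested, of which 5169 (20.0%) were higher and 8063 (31.2%) lower at 0 h. A gene low at 0 h or in culture can clear the filter through the other group alone, which favours a call in that direction. On simulated data with 50 genes changed at each size, 48 of 50 were recovered at 2 log2 units.

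Named genes were the 30 highest, the 15 furthest apart in each direction, up to 4 highest members of each list and every 2-fold member, and up to 3 per list and direction with the largest difference past the threshold. The lists and the genes were chosen with earlier results of these data known. The SWEET list, the split of chloroplast genes by complex, the highest nuclear genes, the 2-fold genes with a symbol, the neighbours of AT3G16670 and other single genes given for contrast were picked after their values were seen. No sequence is shown. Alternatives were other centrings and scalings, other filters and folds, the limma trend, sugar as a block and each array left out.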

Additional observations from a re-analysis of the deposited data

Results flagged for a closer look

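Some probe sets 2-fold apart at 0 h were 2-fold apart the opposite way in culture. This was so for 12 (2.5%) at 24 h and 27 (5.63%) at 48 h of the 480 higher on the sucrose-labelled array. Of all 1-gene probe sets, 2.70% and 5.63% were 2-fold higher with glucose at those times. It was so for 4 (1.20%) and 9 (2.71%) of the 332 higher on the glucose-labelled one. Of all 1-gene probe sets, 3.35% and 3.19% were 2-fold higher with sucrose, so such reversals were no more frequent than among all probe sets. The 5 given here come from the 15 genes furthest apart in each direction and the 58 with a symbol that were also above the array median on at least 1 array. With 1 array per sugar and time these reversals were not tested. AT3G16660, whose sucrose minus glucose difference was -5.12 at 0 h, was higher with sucrose by 3.74 at 24 h and 1.01 at 48 h. The transcription factor gene bHLH34 was at 1.88 and 0.84 at 0 h, and was higher with sucrose by 1.02 at 24 h. AT3G14280, higher on the sucrose-labelled array by 2.88, differed by -1.43 at 48 h. HYH, a bZIP gene of light signalling, was at 1.46 and 2.75 at 0 h and differed by -1.18 at 48 h. PUP18, of a purine transporter family, was at 1.34 and 2.46 at 0 h and differed by -1.05 at 48 h.

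Of the 20829 probe sets that the platform table does not list, 199 had a mean 0 h signal at or above that of the 100th gene, and 32 of the 759 with several genes did. They carry no gene name here and entered no ranking.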

How the results depend on the processing

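No paired analysis was possible because the labels give no replicate numbers; with the sugar named in the titles as a block over all 6 arrays, limma called 5474 probe sets higher and 8871 lower at 0 h. Among the 100 highest genes the chloroplast count was 59 under every scaling tried and 58 to 60 on a single 0 h array. Nuclear genes numbered 26, 25 to 28 on a single array, 2 of the highest 50 and 116 of the highest 200. The 812 probe sets 2-fold apart became 496 above the array median and 140 at 3-fold. Those higher on the sucrose-labelled array (480) became 286 after centring on all probe sets and 98 at 3-fold. Those higher on the glucose-labelled array (332) became 618 after centring on all probe sets, 719 after quantile normalization, 210 above the 40th percentile, 144 above the array median and 42 at 3-fold. Without 1 array, limma called 3415 to 4469 probe sets higher at 0 h, and 1468 to 1992 of the 1-gene sets. Chloroplast genes called higher numbered 30 without the intensity trend and 36 to 59 without 1 array. Mitochondrial genes called lower numbered 6 as deposited, 1 after quantile normalization, 1 without the trend and 1 to 2 without 1 array, and those called higher 1 after quantile normalization and 0 to 1 without 1 array. LHCB4.3 passed under 4 alternatives. No call of a gene changed its direction under any alternative. With 2 arrays at 0 h and 1 per sugar and time, the number of arrays limits precision.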
